A study of Arabidopsis thaliana with 8 samples.

Results

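The differentially methylated cytosines (DMCs) of the chromosome 1 pericentromere of Arabidopsis thaliana are described here, that is, the cytosines between 11.5 and 17.7 Mb on chromosome 1 of the TAIR10 assembly whose methylation was called different between a selected plant population and its ancestor. They were chosen by position alone: every entry of the 6 lists in the interval that falls on a cytosine of the stated strand. There were 5774 such entries of 70564 on the nuclear chromosomes in all 6 lists, at 4868 distinct positions. Each of the 8 sequenced samples pooled the DNA of 4 plants, harvested whole above ground at an age of 25 days, and unmethylated cytosines were converted by bisulfite before SOLiD sequencing. Plants were of CVL39 or of CVL125, 2 recombinant inbred lines that each combine segments of the parental accessions Ler and Cvi. Within each line, 3 pools came from populations kept for 5 generations under selection in landscapes 1, 5 or 6 and then for 2 generations without it, and 1 pool was ancestral. Each selected pool was compared with the ancestral pool of its line, and a list gives positions and p-values but no methylation level, no read count and no direction of change. The 3 lists of a line therefore share 1 ancestral pool, line and ancestral pool cannot be told apart, and p-values measure only the spread between pools.

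Pericentromeres of Arabidopsis are heterochromatin, rich in transposons and their remnants and poor in active genes, and methylated in all sequence contexts, most fully at CG and least at CHH. CG methylation is copied at replication by MET1, CHG methylation is kept by CMT3 through a loop with methylated lysine 9 of histone H3, and CHH methylation (H being A, C or T) is set by CMT2 and by DRM2 guided by small RNAs. The remodeller DDM1 gives these enzymes access to heterochromatin. Those expressed genes that are methylated usually carry CG methylation only, mostly away from their ends.

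The interval fitted this description in its annotation. It held 670 protein-coding genes and 599 pseudogenes in 6.2 Mb, which is 108 protein-coding genes and 96.6 pseudogenes per Mb, against 268 and 13.7 per Mb in the chromosome 1 arms (24.2 Mb). Pseudogenes, which in this annotation include many transposon remnants, covered 22.6% of its bases, against 2.29% in the arms, and protein-coding genes 23.0%, against 65.1%. Of its bases, 2.65% were unknown, in runs of up to 53000 bases, and 76.8% lay at the centre of a 50-base window found nowhere else in the genome, against 96.9% in the arms.

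The densest stretches of DMCs show what these positions look like in the reference. For each line, the 3 stretches of at most 150 bases with the most distinct positions outside CT runs (4 or more CT dinucleotides in a row on either strand) over its 3 lists are printed with 5 bases on either side, plus strand, 5′ to 3′, from TAIR10, each with the line that ranked it and its coordinates. Capitals mark the cytosines listed in that line, C for a cytosine on the plus strand and G for a cytosine on the minus strand. The first is in a pseudogene (AT1G43750), the second lies between annotated loci, the third is at the start of the cyclin gene CYCB1;5, the fourth is in the auxin response factor gene ARF21, the fifth is in a pseudogene (AT1G43740) and the last is in an intron of AT1G40104.
CVL39, chr1:16522353-16522496: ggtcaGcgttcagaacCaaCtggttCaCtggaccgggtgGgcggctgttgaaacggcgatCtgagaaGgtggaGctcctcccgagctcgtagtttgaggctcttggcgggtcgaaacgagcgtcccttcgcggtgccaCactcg
CVL39, chr1:14045362-14045510: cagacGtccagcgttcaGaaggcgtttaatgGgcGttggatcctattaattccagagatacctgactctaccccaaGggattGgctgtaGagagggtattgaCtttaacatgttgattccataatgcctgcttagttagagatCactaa
CVL39, chr1:12595166-12595296: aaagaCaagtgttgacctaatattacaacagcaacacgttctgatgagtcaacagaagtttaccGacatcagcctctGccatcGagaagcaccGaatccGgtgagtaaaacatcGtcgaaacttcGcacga
CVL125, chr1:12578044-12578156: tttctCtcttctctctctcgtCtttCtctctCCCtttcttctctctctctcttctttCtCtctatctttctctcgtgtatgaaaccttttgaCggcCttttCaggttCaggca
CVL125, chr1:16513366-16513422: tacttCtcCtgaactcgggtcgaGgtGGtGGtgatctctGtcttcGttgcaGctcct
CVL125, chr1:15084467-15084566: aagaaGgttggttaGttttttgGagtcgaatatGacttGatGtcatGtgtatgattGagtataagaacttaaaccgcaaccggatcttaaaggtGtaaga

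These stretches were chosen by their counts, so the counts are descriptions only. In the AT1G43750 stretch, 10 positions were listed in CVL39, with 5, 4 and 2 in landscapes 1, 5 and 6, and 1, 1 and 3 positions were listed there in CVL125. The stretch between loci held 9 positions in CVL39 (2, 1 and 6), against 1, 1 and 0 in CVL125. Its nearest locus, a pseudogene, was 508 bases away. The CYCB1;5 stretch held 8 positions in CVL39 (6, 4 and 3), of which 6 were CG, and none in any of the 3 CVL125 lists. Coding sequence made up 78.5% of it. The ARF21 stretch had 1, 0 and 0 listed cytosines in landscapes 1, 5 and 6 of CVL39, against 6, 5 and 1 in CVL125. The 12 positions of CVL125 were all on the plus strand and 9 were CHH, in a sequence made largely of C and T. The AT1G43740 stretch, only 47 bases between its outer positions, had 0, 0 and 1 in CVL39, against 4, 7 and 5 in CVL125, at 10 positions. The AT1G40104 intron had 0, 1 and 1 in CVL39, against 1, 8 and 1 in CVL125, and its 9 positions of CVL125 were all CHH and all on the minus strand. Only 36.7% of that stretch was unique in the genome.

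CVL39 had 947, 1045 and 947 DMCs in landscapes 1, 5 and 6, against 1048, 1101 and 686 in CVL125. The lists overlapped, with the CVL125 landscape 6 list the shortest in the interval as in the genome. The means were 980 ± 56.6 in CVL39 and 945 ± 226 in CVL125 (n = 3 each, ± SD), a difference of 34.7 DMCs (exact permutation test over lists, two-sided, p = 1, adjusted p = 1 over 6 comparisons between lines). Without landscape 6 the difference turned to -78.5 DMCs.

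As a share of all nuclear DMCs, the interval held 8.41% (7.90 to 8.93%), 8.28% (7.81 to 8.78%) and 7.43% (6.98 to 7.90%) in CVL39, against 8.34% (7.86 to 8.84%), 7.82% (7.38 to 8.28%) and 9.40% (8.74 to 10.1%) in CVL125, with 95% Clopper-Pearson intervals that cover counting error only. CVL125 landscape 6, the shortest list, gave the highest share. The means were 8.04 ± 0.533% in CVL39 and 8.52 ± 0.804% in CVL125 (n = 3 each, ± SD), and the difference of -0.48 percentage points lay within the spread between lists (exact permutation test, p = 0.5, adjusted p = 0.72). It turned to 0.263 percentage points without landscape 6.

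Of the 2148636 reference cytosines of the interval, 0.0441%, 0.0486% and 0.0441% were listed in CVL39, and 0.0488%, 0.0512% and 0.0319% in CVL125. The same shares over all 42859516 nuclear cytosines were 0.0263%, 0.0294% and 0.0297% in CVL39 and 0.0293%, 0.0328% and 0.017% in CVL125. In every list the interval was thus above the nuclear share. Whether each cytosine was deep enough to be tested is unknown, so these are shares of the reference and not of tested cytosines.

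CHH was the most frequent context in all 6 lists. CVL39 had 466, 497 and 427 CHH DMCs in landscapes 1, 5 and 6, 238, 282 and 256 CHG DMCs, and 243, 266 and 264 CG DMCs. CVL125 had 596, 586 and 362 CHH DMCs, 227, 265 and 196 CHG DMCs, and 225, 250 and 128 CG DMCs. The shares of CG and CHH did not overlap between the lines, in the interval as in the arms. At listed p-values of at most 0.005, CG led in CVL39 landscapes 1 (46.6%, against 32.8% CHH) and 6 (40%, against 36% CHH). CHH still led in CVL39 landscape 5 and in every CVL125 list at that threshold.

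The CG share was 25.7%, 25.5% and 27.9% in CVL39, against 21.5%, 22.7% and 18.7% in CVL125, and the lines did not overlap. It averaged 26.3 ± 1.34% in CVL39 and 20.9 ± 2.07% in CVL125 (n = 3 each, ± SD), a difference of 5.39 percentage points with the smallest p that this design allows (exact permutation test, p = 0.1, adjusted p = 0.3). The CHH share was 49.2%, 47.6% and 45.1% in CVL39, against 56.9%, 53.2% and 52.8% in CVL125, again without overlap. Its means were 47.3 ± 2.07% and 54.3 ± 2.25% in CVL39 and CVL125 (n = 3 each, ± SD), a difference of -7.00 percentage points (exact permutation test, p = 0.1, adjusted p = 0.3). The CHG share overlapped between lines, at 26.4 ± 1.08% in CVL39 and 24.8 ± 3.51% in CVL125 (n = 3 each, ± SD; exact permutation test, p = 0.6, adjusted p = 0.72). With 3 lists a line, no p under 0.1 can be reached, so none of these differences passed 0.05. In the chromosome 1 arms the CG share was 70.8 to 72.6% in CVL39 and 60.6 to 68.5% in CVL125. The CHH share was 18.9 to 20.4% in CVL39 and 24.8 to 28.5% in CVL125, so the arms had the same order. In the chromosome 3 pericentromere the order of the CG shares was reversed and the CHH shares overlapped. CVL39 had 277, 347 and 357 CG, 532, 555 and 592 CHG and 756, 778 and 766 CHH DMCs there. CVL125 had 371, 413 and 199 CG, 344, 358 and 296 CHG and 614, 628 and 434 CHH DMCs. In the chromosome 5 pericentromere the CG shares overlapped.

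CHH DMCs in runs of alternating C and T were most frequent in landscapes 1 and 5 of CVL125. These CT runs, of 4 or more CT dinucleotides, held 0.251% of the CHH cytosines of the interval. They held 31, 70 and 21 of the CHH DMCs of CVL39 (6.65%, 14.1% and 4.92%), against 149, 131 and 19 of those of CVL125 (25.0%, 22.4% and 5.25%). Landscapes 1 and 5 of CVL125 were far above landscape 6 of the same line, which lay within the range of CVL39. Without CT runs, CVL125 landscape 6 had the highest CHH share of all lists (51.4%). Outside CT runs, CVL39 had 435, 427 and 406 CHH DMCs and CVL125 447, 455 and 343. Without CT runs the CHH share differed by -4.31 percentage points and the lines overlapped (exact permutation test, p = 0.2), whereas the CG share still did not (26.5 to 28.5% in CVL39, 19.2 to 25.8% in CVL125). What CT runs do to SOLiD reads and their alignment was not tested.

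**Figure D1:**
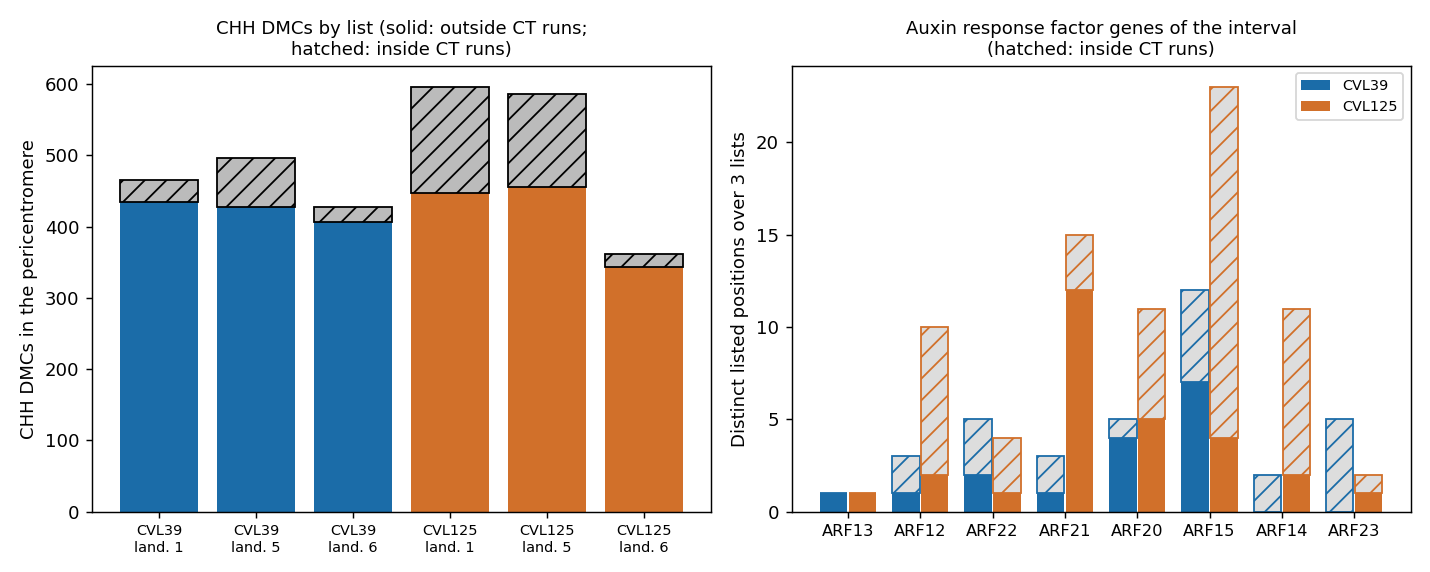
CHH DMCs of the pericentromere in each list, stacked as outside CT runs (solid) and inside CT runs (hatched), and distinct listed positions over 3 lists in each of 8 auxin response factor genes for CVL39 (left bars) and CVL125 (right bars), with positions in CT runs hatched. The hatched parts are tallest in CVL125 landscapes 1 and 5 (149 and 131 DMCs), while the solid parts lie between 343 and 455 in all 6 lists.

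Against the arms of the same chromosome, CHG DMCs were about 8 times and CHH DMCs about 5 times as dense in the pericentromere, whereas CG DMCs were not denser. Density is the number of DMCs per 100000 reference cytosines of the context, compared within each list. The 6 lists contain 3 that share each ancestral pool, so the sign-flip test over lists treats as independent what rests on 2 ancestral pools.

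CHG density was 85.5, 101 and 92.0 in the pericentromere in CVL39 landscapes 1, 5 and 6, against 11.1, 9.96 and 11.8 in the arms. In CVL125 it was 81.6, 95.2 and 70.4 in the pericentromere, against 10.9, 11 and 8.06 in the arms. In all 6 lists the pericentromere was higher, by 8.39-fold on average (7.48- to 10.2-fold; log2 ratio 3.07; exact sign-flip permutation test, two-sided, p = 0.031, the smallest possible with 6 lists, adjusted p = 0.0402 over 9 comparisons with the arms). CHH density was 29.1, 31 and 26.7 in the pericentromere in CVL39, against 4.91, 5.72 and 5.27 in the arms. In CVL125 it was 37.2, 36.6 and 22.6 in the pericentromere, against 7.22, 8.11 and 3.75 in the arms. The ratio averaged 5.32-fold (4.51- to 6.02-fold; log2 ratio 2.41; higher in 6 of 6 lists; exact sign-flip permutation test, p = 0.031, adjusted p = 0.0402).

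CG density was 90.6, 99.2 and 98.4 in the pericentromere in CVL39, against 96.7, 114 and 113 in the arms. In CVL125 it was 83.9, 93.2 and 47.7 in the pericentromere, against 89.1, 126 and 46.3 in the arms. The pericentromere was lower in 5 of 6 lists, with CVL125 landscape 6 the exception, and the ratio averaged 0.894 (0.742 to 1.03; log2 ratio -0.16; exact sign-flip permutation test, p = 0.0625, adjusted p = 0.0625). Over unique 50-base windows alone the log2 ratio turned to 0.082, and at listed p-values of at most 0.005 it was -0.78 (p = 0.031 in an exact test, adjusted p = 0.0402). CG made up 23.6 ± 3.34% of pericentromere DMCs, against 68.0 ± 5.10% of arm DMCs (SD, n = 6 lists), a difference of -44.3 percentage points in the same direction in all 6 lists (exact sign-flip permutation test, p = 0.031, adjusted p = 0.0402).

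**Figure D2:**
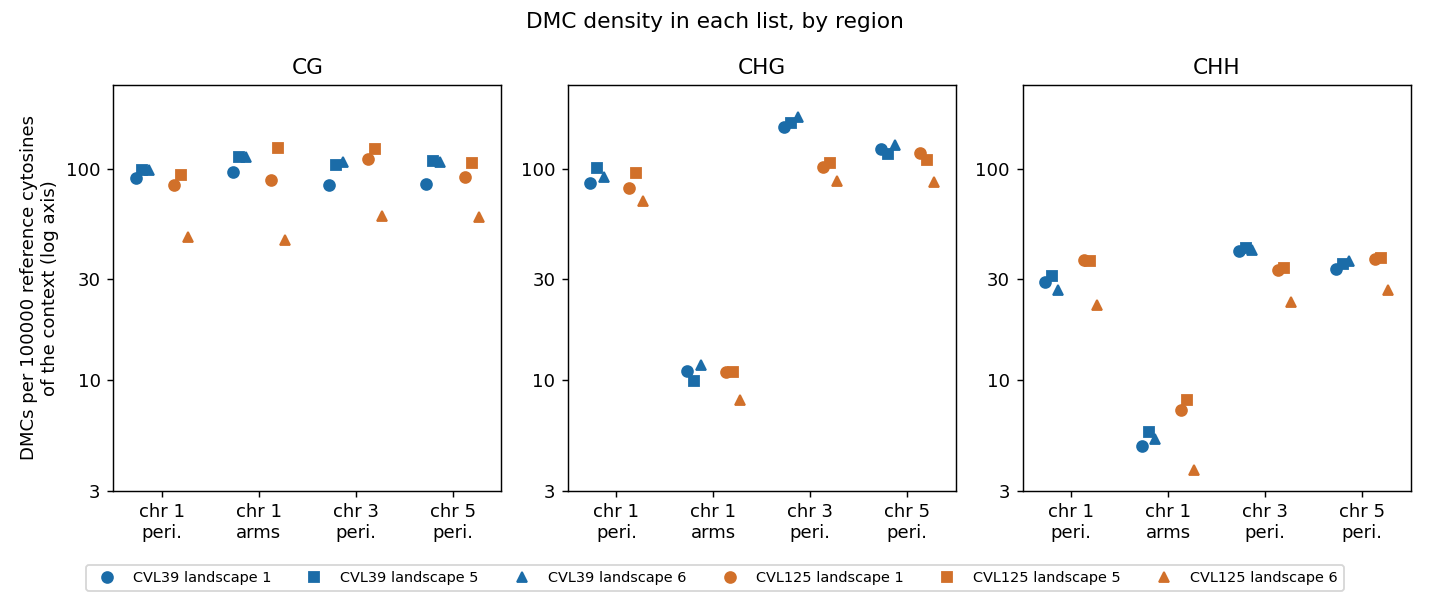
DMC density per 100000 reference cytosines of the context (log axis) in the chromosome 1 pericentromere, the chromosome 1 arms and the chromosome 3 and 5 pericentromeres, with 1 marker for each of the 6 lists and a panel for each context. CHG and CHH markers of all 6 lists sit far above those of the arms (7.48- to 10.2-fold and 4.51- to 6.02-fold), while CG markers of both regions of chromosome 1 overlap.

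The pericentromeres of chromosomes 3 (10.3 to 17.3 Mb) and 5 (9 to 16 Mb) carried more CHG DMCs per cytosine than the whole interval on chromosome 1 in every list. This difference shrank when the chromosome 1 interval alone was narrowed. The chromosome 1 density was 0.680 times that of chromosome 3 (0.523 to 0.895) and 0.766 times that of chromosome 5 (0.687 to 0.863), each at the smallest p that 6 lists allow (exact sign-flip permutation test, p = 0.031, adjusted p = 0.0625 over 6 comparisons with other pericentromeres). The gap to chromosome 3 was wider in CVL39, with 92.9 ± 7.95 on chromosome 1 against 166 ± 9.0 on chromosome 3, than in CVL125, with 82.4 ± 12.4 against 98.9 ± 9.67 (n = 3 each, ± SD); the difference between these gaps was not tested. CG densities were 0.865 times those of chromosome 3 (adjusted p = 0.1125 in an exact test) and 0.913 times those of chromosome 5 (adjusted p = 0.09375). CHH densities were 0.855 times those of chromosome 3 (4 of 6 lists lower, adjusted p = 0.21875 in an exact test) and 0.875 times those of chromosome 5 (6 of 6 lists lower, adjusted p = 0.0625). With positions in CT runs left out, the CHG and CHH ratios to both chromosomes reached an adjusted p of 0.0469 in the same exact test. Of the bases, 76.8% were unique in the interval, against 87.2% on chromosome 3 and 83.4% on chromosome 5. Over unique 50-base windows alone, the log2 ratios to chromosomes 3 and 5 were -0.081 and -0.055 for CG and -0.43 and -0.32 for CHG. For CHH they were -0.15 and -0.15, and none of these ratios passed 0.05. In a further setting the chromosome 1 interval was narrowed by 1 Mb at each end and chromosomes 3 and 5 were not, so unlike regions were compared. In the whole interval the CHG log2 ratios were -0.56 against chromosome 3 and -0.39 against chromosome 5. In the narrowed one they shrank to -0.22 and -0.046 (adjusted p = 0.281 and 0.5625 in the exact test). The CHH log2 ratios turned to 0.12 against chromosome 3 and 0.15 against chromosome 5.

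DMCs of the 3 contexts lay in different parts of the interval, with CG DMCs most often in protein-coding genes and CHG DMCs most often in pseudogenes. Protein-coding genes held 47.3%, 49.2% and 48.1% of the CG DMCs of CVL39, against 47.6%, 46.4% and 37.5% of those of CVL125, while they held 26.2% of the CG cytosines of the interval. Pseudogenes held 23.5%, 21.8% and 23.9% of the CG DMCs in CVL39 and 26.2%, 27.6% and 30.5% in CVL125, beside 28.3% of CG cytosines. For CHG the order was turned round. Pseudogenes held 56.7%, 57.4% and 55.5% of CHG DMCs in CVL39 and 57.7%, 54.7% and 58.7% in CVL125, beside 33.2% of CHG cytosines (28.6% of unique ones), and protein-coding genes held between 6.30 and 9.93%, beside 28.8%. CHG DMCs of pseudogenes were above the reference share in 6 of 6 lists.

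CHH DMCs lay between these. Pseudogenes held 43.6%, 39.0% and 46.8% of them in CVL39, against 31.7%, 33.4% and 39.2% in CVL125, beside 25.8% of CHH cytosines. The lines overlapped slightly, with CVL125 landscape 6 above CVL39 landscape 5. Between annotated loci lay 42.3%, 45.3% and 42.9% of CHH DMCs in CVL39 and 51.3%, 51.9% and 46.7% in CVL125, beside 48.5% of CHH cytosines. Protein-coding genes held 10.3 to 16.4%, beside 24.3%.

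**Figure D3:**
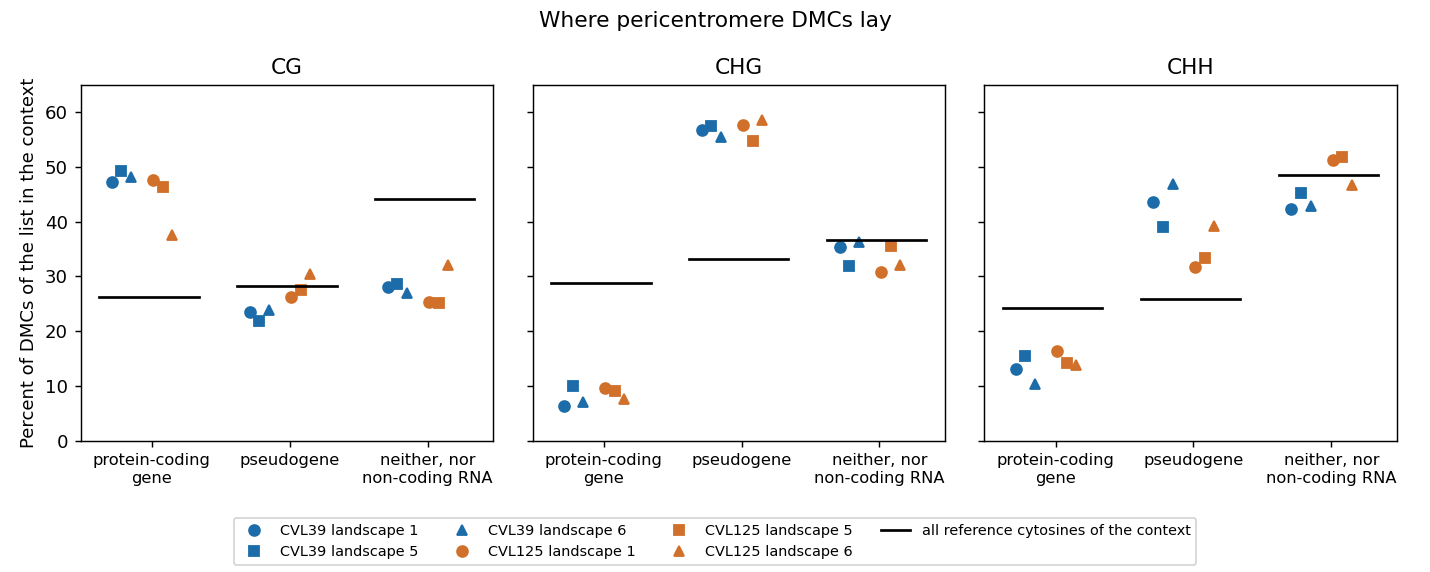
Percent of the pericentromere DMCs of each list (markers) in protein-coding genes, in pseudogenes and outside annotated loci, by context, with black lines for all reference cytosines of the context. CG markers stand above the line in protein-coding genes (37.5 to 49.2%, line at 26.2%), and CHG markers stand above it in pseudogenes (54.7 to 58.7%, line at 33.2%).

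Set against the arms, far fewer pericentromere DMCs of any context were in bodies of protein-coding genes. For CG the share was 46.0 ± 4.28% in the pericentromere, against 93.6 ± 0.975% in the arms (SD, n = 6 lists), a difference of -47.6 percentage points. For CHG it was 8.28 ± 1.5%, against 49.7 ± 6.46% (-41.4 percentage points), and for CHH 13.9 ± 2.13%, against 58.6 ± 7.12% (-44.7 percentage points). Each difference had the same sign in 6 of 6 lists (exact sign-flip permutation test, p = 0.031, adjusted p = 0.0402). Protein-coding genes cover 23.0% of pericentromere bases and 65.1% of arm bases, so the shares differ in the reference too. Between lines, the gene-body share of CG DMCs was 48.2 ± 0.967% in CVL39 and 43.8 ± 5.50% in CVL125 (n = 3 each, ± SD), a difference of 4.41 percentage points within the spread between lists (exact permutation test, p = 0.2, adjusted p = 0.4).

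Inside protein-coding genes, CG DMCs were mostly in coding sequence. Coding sequence held between 79.3 and 87.0% of them in the 6 lists, beside 68.7% of the CG cytosines of these genes, and untranslated or other exon parts held 1.53 to 4.17%, beside 13.9%. Introns held 11.5 to 18.3%, beside 17.3%. CHH DMCs of genes were more often in introns, at 40.9 ± 3.23% in CVL39 and 58.4 ± 9.15% in CVL125 (n = 3 each, ± SD), beside 28.6% of CHH cytosines. Genes held only 61, 77 and 44 CHH DMCs in CVL39 and 98, 83 and 50 in CVL125. The 8 auxin response factor genes described below had 14, 22 and 8 DMCs of any context in CVL39 and 44, 32 and 20 in CVL125. How many of these lay in introns was not counted.

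CG DMCs became denser towards the 3′ end of genes. Bodies were split into 5 equal parts from the start to the end. Over 668 protein-coding genes, part 1 had 64.5 ± 3.28 CG DMCs per 100000 CG cytosines in CVL39 and 36.0 ± 6.57 in CVL125 (n = 3 each, ± SD). Part 4 had 256 ± 32.3 in CVL39 and 182 ± 83.1 in CVL125, and part 5 had 248 ± 31.7 and 172 ± 76.9 in CVL39 and CVL125. The kilobase before the start had 72.9 ± 9.33 in CVL39 and 68.0 ± 48.4 in CVL125. Part 1 was below part 4 in the mean of each line, and the lowest list of part 4 was above the highest list of part 1 within each line.

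CHG DMCs were sparse inside genes, and within gene bodies CHH DMCs were densest in part 1. Part 2 had 14.5 ± 14.3 CHG DMCs per 100000 CHG cytosines in CVL39 and 22.8 ± 9.48 in CVL125, against 74.9 ± 5.62 and 50.3 ± 8.50 in CVL39 and CVL125 between 2 and 1 kb before the start (n = 3 each, ± SD). CHH density in part 1 was 33.0 ± 15.3 in CVL39 and 56.6 ± 19.4 in CVL125, and it was 7.15 ± 0.73 in CVL39 and 7.58 ± 2.53 in CVL125 in part 3. Of the CHH DMCs in part 1, which numbered 22, 39 and 16 in CVL39 and 60, 42 and 30 in CVL125, the auxin response factor genes of the interval held 10, 19 and 8 in CVL39 and 42, 26 and 19 in CVL125. CT runs held 11, 13 and 6 of them in CVL39 and 34, 23 and 13 in CVL125. With the auxin response factor genes left out, a choice made after their values were seen, CHH density in part 1 was 17.4 ± 7.99 in CVL39 and 19.6 ± 4.72 in CVL125, and in part 3 it was 6.41 ± 1.28 in CVL39 and 7.69 ± 2.56 in CVL125 (n = 3 each, ± SD). Part 1 was thus still above part 3 in the other genes, and by less.

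Around 598 pseudogenes, CHG and CHH DMCs were denser in the body than in the adjoining kilobases in the means of CVL39, and in CVL125 the values overlapped. The 5 parts of the body had mean CHG densities from 155 to 163 in CVL39 and from 120 to 171 in CVL125. The kilobase before the start had 89.9 ± 19.5 in CVL39 and 126 ± 36.0 in CVL125, and the kilobase after the end had 128 ± 17.8 in CVL39 and 89.2 ± 20.5 in CVL125 (n = 3 each, ± SD). Mean CHH densities in the body were 41.9 to 51.3 in CVL39 and 36.6 to 49.0 in CVL125, and those in the adjoining kilobases 24.7 to 28.3 in CVL39 and 33.0 to 36.9 in CVL125. CG density of pseudogenes changed less along the body than that of genes. It was 70.1 ± 15.4 in part 1 and 72.7 ± 14.6 in part 4 in CVL39, and 68.1 ± 18.8 and 70.3 ± 21.1 in the same parts in CVL125. Part 5 had the highest mean of the 5 parts in both lines, at 99.8 ± 20.5 in CVL39 and 93.5 ± 54.2 in CVL125.

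**Figure D4:**
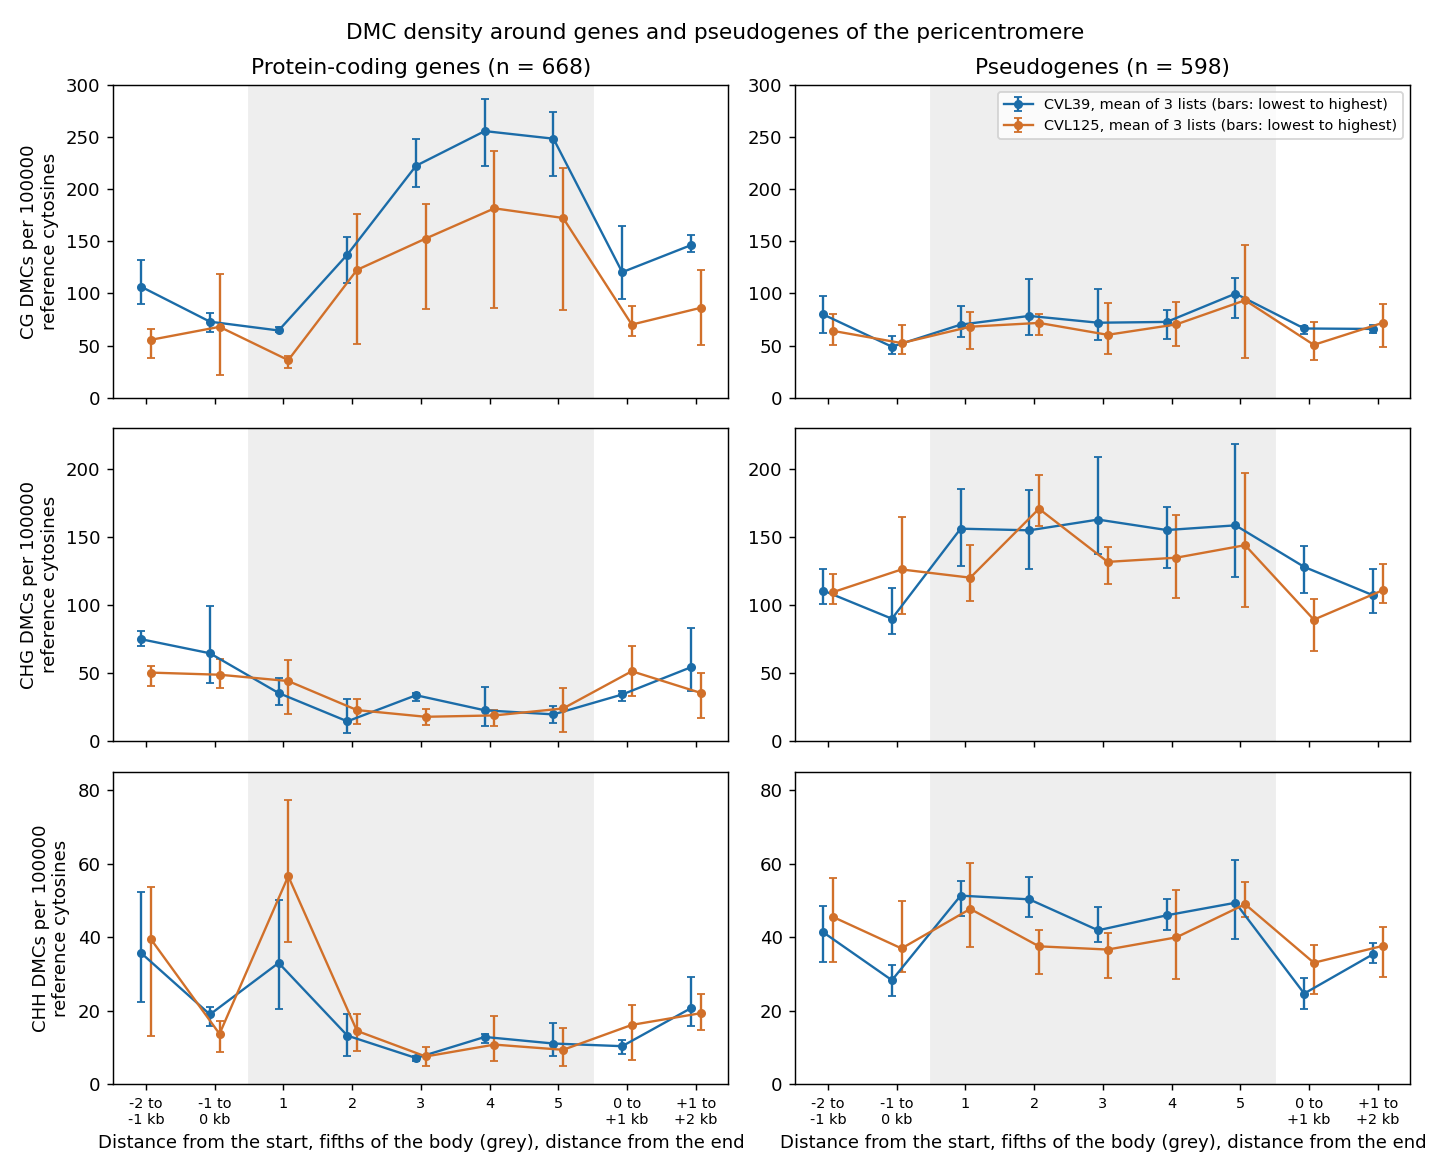
DMC density per 100000 reference cytosines of the context around protein-coding genes (left, n = 668) and pseudogenes (right, n = 598) of the interval, in 1 kb bins outside the body and in 5 equal parts of the body (grey), as the mean of 3 lists for each line with bars from the lowest to the highest list. CG density of genes is highest in part 4 (256 in CVL39, 182 in CVL125). CHH density within gene bodies is highest in part 1, and CHG density of pseudogenes is higher in the body than at its edges in CVL39.

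Along the interval, DMCs were unevenly spread, and the same windows were richest in both lines. Over the 62 windows of 100 kb, the mean over 6 lists ranged from 0.167 to 68.5 DMCs, with a median of 13.75; 2 windows exceeded 40 and 9 were under 5. Across windows, the means of CVL39 and CVL125 had a Spearman rho of 0.87 (n = 62 windows, which share the reference, its unique sequence and its base composition, and are no replicates).

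The richest window in both lines, 16500001 to 16600000, had 58, 71 and 55 DMCs in CVL39, against 66, 92 and 69 in CVL125. Its means were 61.3 ± 8.50 in CVL39 and 75.7 ± 14.2 in CVL125 (n = 3 each, ± SD), and the lists overlapped. CHH DMCs averaged 32.7 there in CVL39 and 49.0 in CVL125, CHG DMCs 20.3 and 17.0 in CVL39 and CVL125. It holds 8 protein-coding genes and 13 pseudogenes, and most of its DMCs lay in pseudogenes towards its left side. AT1G43740 had 4, 10 and 10 DMCs in CVL39 and 9, 17 and 10 in CVL125. AT1G43745 had 11, 7 and 8 in CVL39 and 7, 9 and 7 in CVL125. AT1G43750 had 12, 9 and 9 in CVL39 and 13, 16 and 14 in CVL125. These pseudogenes are partly repeated in the genome (unique share 64.8%, 42.1% and 64.9%), so the counts of each are uncertain. The protein-coding genes further right varied. AT1G43760, a DNAse I-like gene, had 1, 5 and 1 DMCs in CVL39 and 1, 1 and 3 in CVL125, and the uncharacterized AT1G43815 had 1, 3 and 3 in CVL39 and 2, 2 and 2 in CVL125. TED6, named for tracheary element differentiation, had 1, 0 and 0 DMCs in CVL39 and none in CVL125, and FTM1, which encodes a stearoyl-acyl-carrier-protein desaturase family member, had none in any list.

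The next windows were 13900001 to 14000000, with 40, 44 and 55 DMCs in CVL39 and 49, 56 and 37 in CVL125, and 15500001 to 15600000, with 30, 37 and 46 in CVL39 and 37, 31 and 37 in CVL125. Both are rich in pseudogenes, with 19 each, and hold 5 and 1 protein-coding genes. At the other extreme, the window 14800001 to 14900000 had 1 DMC in all 6 lists together, the window 15300001 to 15400000 had 0, 0 and 1 in CVL39 and 1, 0 and 1 in CVL125, and 14700001 to 14800000 had 0, 0 and 1 in CVL39 and 1, 2 and 1 in CVL125. Only 11.1%, 0.557% and 7.08% of the bases of these windows were unique, and 49.1% of the last were unknown. A low unique share did not always go with few DMCs, since the window 15200001 to 15300000, with 9.93% unique bases, had 18, 8 and 12 DMCs in CVL39 and 11, 19 and 17 in CVL125. Nor was every poor window repetitive: 11800001 to 11900000, with 15 protein-coding genes and 90.0% unique bases, had 3, 3 and 5 DMCs in CVL39 and 2, 1 and 3 in CVL125.

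Windows with more bases in genes had more CG DMCs, and windows with more bases in pseudogenes had more CHG and CHH DMCs. Across the 62 windows, the mean number of CG DMCs had a Spearman rho of 0.53 with the share of bases in protein-coding genes and -0.20 with that in pseudogenes. For CHG the values were -0.14 with protein-coding genes and 0.50 with pseudogenes, and for CHH -0.29 and 0.45. The number of unique cytosines of the context in a window had a rho of 0.65 with its CG DMCs, higher than that of protein-coding bases, 0.26 with its CHG DMCs and 0.034 with its CHH DMCs. The number of all DMCs had a rho of 0.084 with the unique share of the window. These are descriptions of windows, not tests.

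**Figure D5:**
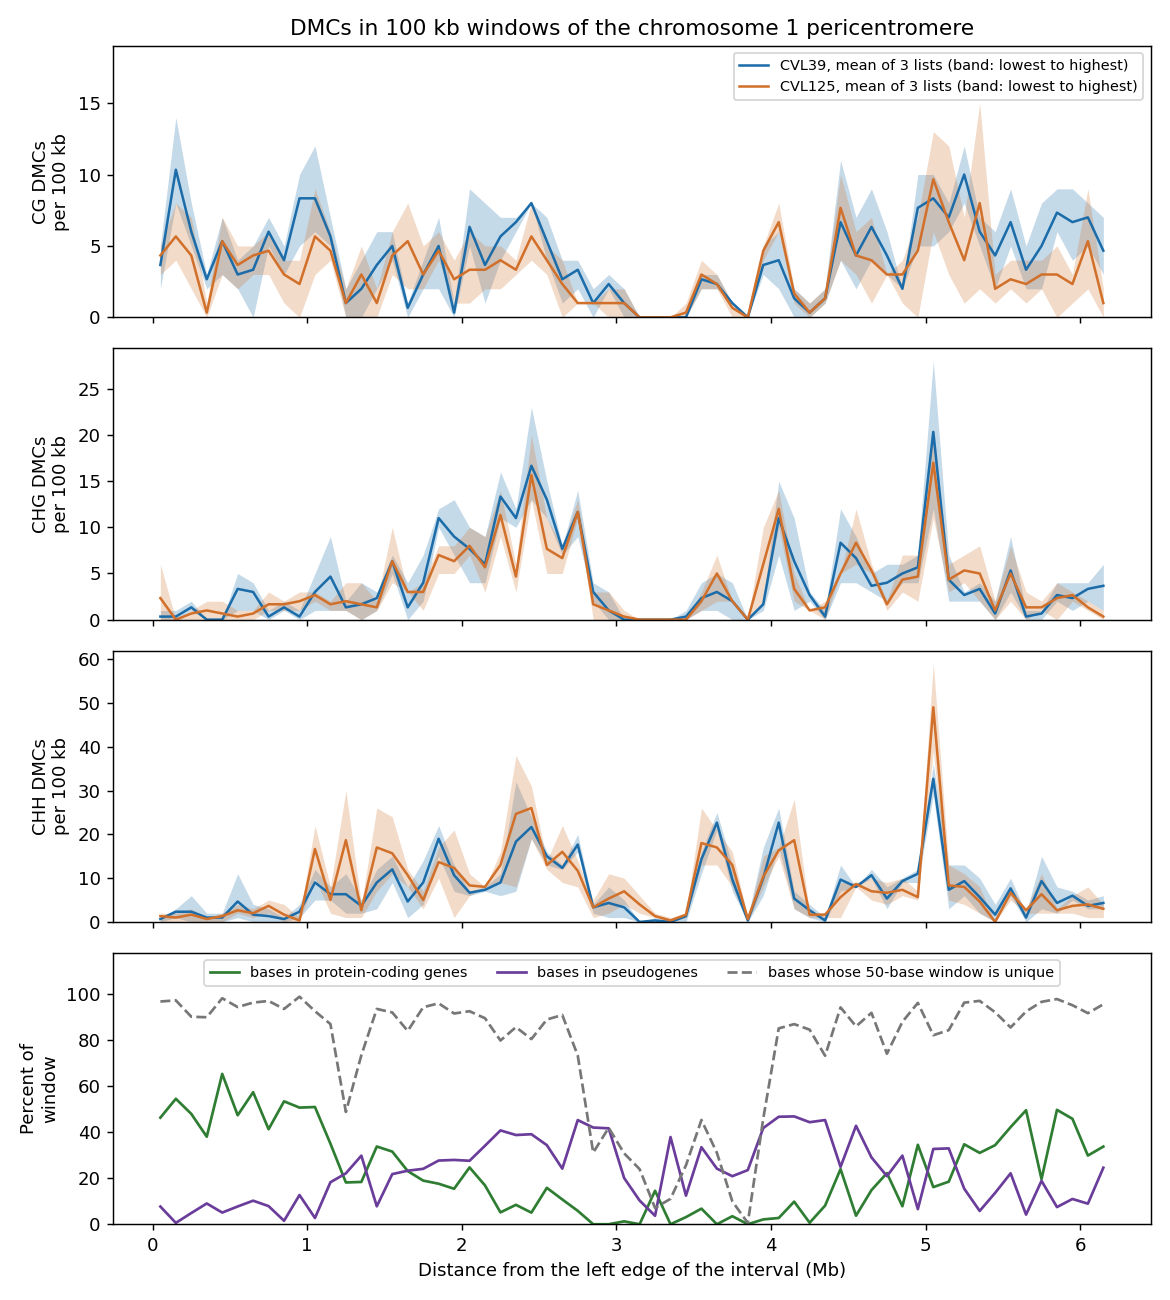
CG, CHG and CHH DMCs per 100 kb window (upper panels; lines are means of 3 lists for CVL39 and CVL125, bands run from the lowest to the highest list) and percent of each window's bases in protein-coding genes, in pseudogenes and in unique 50-base windows (lowest panel), against distance from the left edge of the interval in Mb. Both lines peak in the same windows, with means of 61.3 in CVL39 and 75.7 in CVL125 over all contexts in the richest one, and the 3 windows with the lowest means have unique shares of 11.1%, 0.557% and 7.08%.

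In 7 of the 62 windows all 3 CVL39 lists were above all 3 CVL125 lists, and in 2 all 3 were below. These are 11.3% and 3.23% of the windows, against 13.1% (156 of 1188) and 3.62% (43 of 1188) of all nuclear windows, and so near the background. The 7 windows start at 11.6, 14.0, 14.2, 17.0, 17.3, 17.4 and 17.6 Mb, and the 2 at 13.1 and 14.6 Mb. By context, CVL39 was above in 9 windows for CG (14.5%, against 12% of nuclear windows), 3 for CHG (4.84%, against 4.63%) and 2 for CHH (3.23%, against 6.48%). It was below in 1 window for CG (1.61%, against 3.79%), 1 for CHG (1.61%, against 1.6%) and 2 for CHH (3.23%, against 3.87%). The window at 13.1 Mb holds ARF14.

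DMCs lay close together more often than in the arms. The next listed cytosine of the same list was under 100 bp away for 25.0 ± 4.18% of neighbouring pairs in the pericentromere, against 18.9 ± 3.99% in the arms (SD, n = 6 lists), a difference of 6.06 percentage points, higher in 6 of 6 lists (exact sign-flip permutation test, p = 0.031, adjusted p = 0.0402). At listed p-values of at most 0.005 the difference was 6.39 percentage points and no longer passed (p = 0.3125 in the exact test). It was 4.33 percentage points without CT runs and 3.63 over unique 50-base windows alone (adjusted p = 0.0402 each in the exact test). A list had on average 962 DMCs in the 6.2 Mb of the interval and 1599 in the 24.2 Mb of the arms. What this higher density adds to the share of close neighbours was not tested. CG sites are symmetric, so the cytosine across the strand could be listed too. It was for 1.72 ± 1.26% of CG DMCs in the pericentromere, against 3.88 ± 1.71% in the arms (SD, n = 6 lists; lower in 5 of 6; exact sign-flip permutation test, p = 0.0625, adjusted p = 0.0625). With the interval narrowed, this difference was -2.99 percentage points and passed (adjusted p = 0.0352 in the exact test).

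Of the 2591 distinct positions of CVL39 and the 2410 of CVL125, 133 were listed in both, which is 5.13% of the CVL39 and 5.52% of the CVL125 positions. The listed positions were 0.121% of the cytosines of the interval in CVL39 and 0.112% in CVL125, so a listed cytosine of one line was listed in the other more often than cytosines were in general. Whether both lists drew on the same well-covered cytosines was not tested. The 207 shared positions of the arms were 5.03% and 5.62% of the CVL39 and CVL125 positions there, and so about as many. Shared positions were 7.25% of the CVL39 and 7.05% of the CVL125 CHH positions, but 2.80% and 3.47% of the CG and 3.54% and 4.07% of the CHG positions of CVL39 and CVL125. Without CT runs 87 remained, which is 3.48% of CVL39 and 3.91% of CVL125 positions. Within 50 bp of a position of the other line lay 751 CVL39 positions (29%). This share was not counted for the arms or for all cytosines, so whether it is high cannot be said.

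In both lines, the share of loci with a DMC was highest among pseudogenes and lowest among non-coding RNA loci. Of the 670 protein-coding genes, 226 (33.7%) had at least 1 DMC in CVL39 and 200 (29.9%) in CVL125, and 22 had 5 or more distinct positions in CVL39 and 19 in CVL125. Of the 599 pseudogenes, 242 (40.4%) had at least 1 in CVL39 and 235 (39.2%) in CVL125, and 76 and 67 had 5 or more in CVL39 and CVL125. Of the 198 non-coding RNA loci, 22 (11.1%) had at least 1 in CVL39 and 18 (9.09%) in CVL125. Loci outside the interval were not counted, so whether these shares are unusual cannot be said. Counts of a locus grow with its length and cytosines, and the loci named next were ranked by these counts, which are therefore descriptions.

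The same 5 loci led in both lines, and 4 of them are pseudogenes. AT1G35960 (13390829 to 13396127) had 8, 14 and 14 DMCs in CVL39 and 7, 11 and 12 in CVL125, at 36 and 28 distinct positions in CVL39 and CVL125. AT1G36840 (13955622 to 13958831) had 6, 13 and 11 in CVL39 and 17, 13 and 10 in CVL125, mostly CHH (17 of 28 positions in CVL39, 23 of 32 in CVL125). AT1G44510 (16853447 to 16857835) had 9, 12 and 11 in CVL39 and 12, 18 and 5 in CVL125, and was the one in which CG led (14 of 30 positions in CVL39, 17 of 30 in CVL125). AT1G43750 (16522213 to 16524114), whose densest stretch is printed above, had 26 positions in CVL39 and 34 in CVL125. The fifth, AT1G40104 (15081952 to 15085893), is annotated as a protein-coding gene of unknown function and had 13, 13 and 7 DMCs in CVL39 and 14, 17 and 5 in CVL125, with CHH at 23 of 28 positions in CVL39 and 26 of 30 in CVL125. Only 48.0% of it was unique in the genome, so its counts are uncertain.

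Beside AT1G40104 and ARF15, the 3 protein-coding genes that ranked highest in CVL39 carried mostly CG DMCs. CYCB1;5 (AT1G34460, 12595110 to 12602379), a B-type cyclin gene of the mitotic cell cycle family, had 7, 6 and 4 DMCs in CVL39 and none in any CVL125 list. They lay at 11 positions, of which 8 were CG, and 8 of the 11 are in the stretch printed above. AT1G44120, annotated as CELLULOSE SYNTHASE INTERACTIVE 2 (16780059 to 16787623), had 5, 4 and 4 DMCs in CVL39 and 1, 4 and 0 in CVL125, all CG, at 12 positions in CVL39 and 4 in CVL125. The E2F transcription factor gene ATE2F2 (AT1G47870, 17634697 to 17637809), of a family that controls entry into DNA replication, had 3, 4 and 5 DMCs in CVL39 and 1, 1 and 0 in CVL125, with CG at 6 of 9 positions in CVL39.

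In CVL125 the protein-coding genes that ranked next were auxin response factor genes, which encode transcription factors that bind auxin-responsive promoters. ARF15 (AT1G35520, 13082819 to 13085830) had 2, 10 and 4 DMCs in CVL39 and 19, 6 and 2 in CVL125. ARF21 (AT1G34410, 12577722 to 12580824) had 2, 1 and 0 in CVL39 and 9, 8 and 1 in CVL125. ARF20 (AT1G35240, 12927303 to 12930523) had 1, 3 and 2 in CVL39 and 6, 2 and 4 in CVL125, and ARF14 (AT1G35540, 13108634 to 13111700) had 0, 2 and 1 in CVL39 and 2, 7 and 6 in CVL125. The lines overlapped in ARF15, ARF20 and ARF21 and met at 2 DMCs in ARF14.

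All 8 auxin response factor genes of the interval (ARF12, ARF13, ARF14, ARF15, ARF20, ARF21, ARF22 and ARF23), a list made after their values were seen, together had 14, 22 and 8 DMCs in CVL39, against 44, 32 and 20 in CVL125. The CVL125 landscape 6 list was below CVL39 landscape 5. CHH made up 35 of their 36 distinct positions in CVL39 and 70 of 77 in CVL125, and CT runs held 20 of the 36 and 49 of the 77. In ARF12 there were 0, 3 and 0 DMCs in CVL39 and 6, 4 and 7 in CVL125. These genes are close relatives of one another, with 71.8 to 100% of each unique in the genome, so counts of a single member are uncertain.

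Of 15 well-known genes of the interval, 10 carried a DMC in at least 1 list, against 306 of all 670 protein-coding genes (45.7%); the 15 were chosen for being well known, and most had few. No DMC was listed in any of the 6 lists in GTL1 (a trihelix transcription factor of trichome growth), NIA2 (nitrate reductase), CH1 (chlorophyllide a oxygenase, which makes chlorophyll b), NPQ4 (the PsbS protein of photoprotection) or RD21A (a cysteine protease). SEU, which encodes the co-repressor SEUSS of flower development, had 4, 2 and 4 DMCs in CVL39 and 3, 6 and 1 in CVL125, none of them CHG. Only 4 of its 8 distinct positions in CVL39 and 4 of 7 in CVL125 lay outside CT runs. ACC1, the acetyl-CoA carboxylase of fatty acid elongation, had 2, 2 and 1 in CVL39 and 4, 2 and 1 in CVL125, with 3 of its 5 positions CG in CVL39 and none of its 6 in CVL125.

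The rest of these genes had at most 3 DMCs in a list, apart from ATE2F2 above. HSFA1D, a heat shock factor, had 3, 1 and 0 in CVL39 and 2, 3 and 0 in CVL125, and RCD1, a regulator of responses to reactive oxygen, had 1, 0 and 2 in CVL39 and 1, 0 and 0 in CVL125. In the calcium-binding annexin gene ANNAT1, 1 CG position was listed in all 3 CVL39 lists and none in CVL125. MYC2, the jasmonate transcription factor, had 0, 0 and 2 in CVL39 and none in CVL125. GBSS1, which makes amylose, had none in CVL39 and 2, 0 and 0 in CVL125. GAPB, a chloroplast glyceraldehyde-3-phosphate dehydrogenase subunit, had 0, 1 and 1 in CVL39 and 1, 0 and 0 in CVL125, and ABF2, a factor of abscisic acid signalling, had none in CVL39 and 0, 1 and 0 in CVL125. The lists give no depth, so a gene with no DMC may have been covered or not.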

How the data were processed

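Bisulfite sequencing covered 8 pools, of which the 6 selected ones have a list. Per the labels and the study's methods, reads were from SOLiD and were aligned with SOCS to Ler and Cvi sequences built from TAIR10. The deposited lists hold an unadjusted p-value of the authors for each cytosine, at most 0.05, whose test and coverage minimum are not given in the sources used here. In the interval, the median listed p-value lay between 0.0256 and 0.0307 in the 6 lists. Listed p-values of at most 0.005 numbered 116, 138 and 125 in CVL39 landscapes 1, 5 and 6, and 170, 160 and 53 in CVL125. How many entries are false calls was not estimated. Depth per cytosine is unknown.

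Positions were read as counted from 0: 99.4 to 99.6% of nuclear entries then matched a cytosine on their strand, and 12.3 to 14.2% did when counted from 1. Of the entries in the interval, 11, 11 and 9 in CVL39 and 7, 5 and 1 in CVL125 did not and were left out. Printed coordinates count from 1. Sequence and annotation were the RefSeq copy of TAIR10, in which transposons are not a class of their own, and DMCs were placed by body, flanks and introns of its loci.

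The list was the unit of replication. Lines were compared by two-sided exact permutation tests over 3 lists each, regions by exact sign-flip tests over 6 lists, on log2 ratios of density or differences of shares, with Benjamini-Hochberg adjustment within each family. Labels do not say whether populations were independent beyond their landscape. Named loci were, for each line, the 5 loci and the 5 protein-coding genes with the most distinct positions, the 3 richest windows, the 3 densest stretches outside CT runs, and 15 well-known genes. Members, lists and tests were chosen with earlier results of these data known.

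Alternatives were a p-value of at most 0.005, CT runs left out, unique 50-base windows only, a narrowed interval, other distances and flanks, each landscape left out, and landscapes as pairs. Narrowing applied to the chromosome 1 interval only, and the regions compared with it were kept as they were. Scripts were tested on simulated lists with known density ratios. Python 3.11.15 with numpy 2.4.6, pandas 2.3.3, scipy 1.17.1 and matplotlib 3.10.9 was used.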

Additional observations from a re-analysis of the deposited data

How the results depend on the processing

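The difference in number between lines (34.7 DMCs) turned to -1.33 at p-values of at most 0.005 and to -19 in the narrowed interval, and ranged from -78.5 to 102.5 with each landscape left out, landscape 6 giving the lowest. The difference in the share of nuclear DMCs ranged from -0.95 to 0.263 percentage points in the same way, with landscape 6 giving the highest. The gene-body share of CG DMCs differed by -0.13 in the narrowed interval. At p-values of at most 0.005 the CG share differed between lines by 17.6 and the CHH share by -18.2 percentage points. Both had an exact permutation p of 0.1 and an adjusted p of 0.3. Against the arms, the CG log2 ratio was -0.78 at p-values of at most 0.005 and 0.082 over unique windows, the share of close neighbours differed by 6.39 at the stricter p-value without passing, and the share of paired CG sites by -2.99 in the narrowed interval, passing. The CHH log2 ratio to chromosome 5 was 0.087 at the stricter p-value and 0.15 in the narrowed interval, and that to chromosome 3 was 0.12 there. The CHG log2 ratios shrank there to -0.22 against chromosome 3 and -0.046 against chromosome 5. The intervals of chromosomes 3 and 5 were not narrowed. Without CT runs, the ratios to chromosomes 3 and 5 were -0.55 and -0.38 for CHG and -0.35 and -0.34 for CHH, now passing. Positions listed in both lines numbered 751 within 50 bp, 7 at p-values of at most 0.005, and 71 to 86 with each landscape left out of both lines, an alternative chosen after seeing the data. The causes of these changes were not tested. The CHG and CHH ratios to the arms kept their direction and their side of the threshold under the settings that kept all 6 lists. With each landscape left out they kept their direction, but 4 lists cannot give a sign-flip p under 0.125.

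With landscapes paired as a replicate block, p was 1, 1, 0.25, 0.5, 0.25 and 0.5 for number, nuclear share, CG, CHG and CHH shares and gene-body CG share (exact sign-flip permutation test over 3 pairs, smallest possible p 0.25), and no call changed. Per the study, both lines were present together in each selected population, so lists with the same landscape number come from a shared landscape.

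The lists limit what can be said: depth, tested cytosines, methylation levels and direction are unknown, and each line rests on 1 ancestral pool.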
